A study of Mus musculus with 10 samples.

Results

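The 35 genes described here encode soluble enzymes of the lysosome and the proteins that mature or assist them. They were chosen by name from a list of glycosidases, sulfatases, lipases, peptidases and cofactors, and all 35 were found among the 14738 genes of the deposited table. RNA was sequenced from regulatory T (Treg) cells, a suppressive class of CD4 T cells that depends on the factor Foxp3, sorted from mouse spleen in 5 libraries labelled WT and 5 labelled Flcn KO. The hosts were chimeras rebuilt with equal parts of CD45.1+ marrow and of CD45.2+ marrow of the tested genotype, which was Foxp3Cre for WT and Foxp3CreFlcnfl/fl for Flcn KO. Both groups therefore carried the Foxp3-driven Cre and the Foxp3-YFP reporter used in the sort, which kept CD4+ Foxp3-YFP+ cells positive for CD45.2 and negative for CD45.1. Cre acts in Foxp3-expressing cells, so other blood cells of the same marrow kept their loxP-flanked Flcn alleles unrecombined by design, and the sorted Treg cells developed beside CD45.1+ cells in the same host. The labels do not give the age or sex of the mice.

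Soluble lysosomal hydrolases are made at the endoplasmic reticulum, tagged in the Golgi with mannose 6-phosphate and carried to the lysosome by receptors for that tag. Inside the acid lumen each one cuts a particular bond, so that glycogen, glycoprotein sugars, glycosaminoglycans, sphingolipids, other lipids and peptides are taken apart in order, and inherited loss of single enzymes leads to lysosomal storage diseases. Many of their genes are targets of the transcription factors TFEB and TFE3. Folliculin, the product of Flcn, acts with FNIP1 and FNIP2 on the Rag GTPases at the lysosomal surface, in a circuit through which mTORC1 keeps these factors in the cytoplasm when nutrients are ample. Not every listed protein is soluble or sits in the lysosome. Hgsnat encodes a lysosomal membrane enzyme, while Sumf1 acts in the endoplasmic reticulum and Gnptab and Gnptg act in the Golgi.

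Library totals over the genes of the table ranged from 1914516 to 4153854 reads, with between 0.628 and 1.27 normalized counts for each read. WT replicate 1 stood apart: mitochondrial ribosomal RNA took 44.1% of its reads against 24.7% to 31.8% in the other 9 libraries. Flcn itself, the targeted gene, had 78.0, 45.6, 54.7, 46.5 and 46.2 normalized counts in WT replicates 1 to 5 and 158, 129, 130.4, 149 and 124 in replicates 1 to 5 labelled Flcn KO. Its RNA was thus higher in the libraries labelled as knockouts, by 1.36 ± 0.17 on the log2 scale (SE; limma adjusted p = 0.00476; exact two-sided permutation test p = 0.00794, the smallest its 252 splits can give). A value for the whole gene does not separate deleted from retained exons, so it did not check the labels, and every direction below is that of the labels. Foxp3 had 1210 to 1384 normalized counts in the WT libraries and 1056 to 1331 in those labelled Flcn KO. Of the 9 Treg and CD4 T cell markers 8 had negative fold changes and 3 lay wholly below WT, and their sum was 13294 ± 578 in WT and 12139 ± 609.9 in the other group (mean ± SD, n = 5 each). Among them Il2ra rose (0.56 on the log2 scale; limma adjusted p = 0.0292) and Ikzf2 fell (-0.55; limma adjusted p = 0.0336).

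Of the lysosomal genes 6 rose and none fell. The genes that rose were Gaa, Galc, Npc2, Tpp1, Dpp7 and Grn, which belong to 5 of the 6 substrate and function classes, and their fold changes lay between 2.19 and 3.13. The class without such a gene was glycosaminoglycan breakdown. Summed over the 35 genes, the level was 2982 ± 80.8 normalized counts in the WT libraries and 4035 ± 296 in those labelled Flcn KO (mean ± SD, n = 5 each), a ratio of 1.35. The WT sums were 3065, 2879.8, 2927, 2981 and 3058, and those labelled Flcn KO were 4434, 4082, 4139.6, 3645 and 3873, so the groups did not overlap.

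The call for each gene came from limma on log2(normalized count + 1), with a Benjamini-Hochberg adjusted p under 0.05 over all 14723 tested genes. By it 6 of the 35 members were higher, where 0.944% of all tested genes were, and 0 were lower, where 0.768% of all tested genes were. At an unadjusted p under 0.05, 14 members were higher (7.16% of all tested genes) and 0 were lower (6.88%), and 0 were lower by 5 other calls. These were edgeR (2.62% of genes called lower), DESeq2 (2.36%) and limma-voom (2.71%) on recovered reads, limma with trend and robust settings (1.85%) and the authors' deposited table (2.29%). Each value of the libraries labelled Flcn KO lay above each WT value for 8 members (2.47% of all tested genes) and below for 0 (2.45%). Of the 35 fold changes 28 were positive, against 50.6% over all tested genes, and their median was 0.30 with a range from -0.47 to 1.65 on the log2 scale, beside a median of 0.003 over all genes. In the bulk libraries used here, fewer cells of a type and less RNA per cell cannot be told apart.

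**Figure D1:**
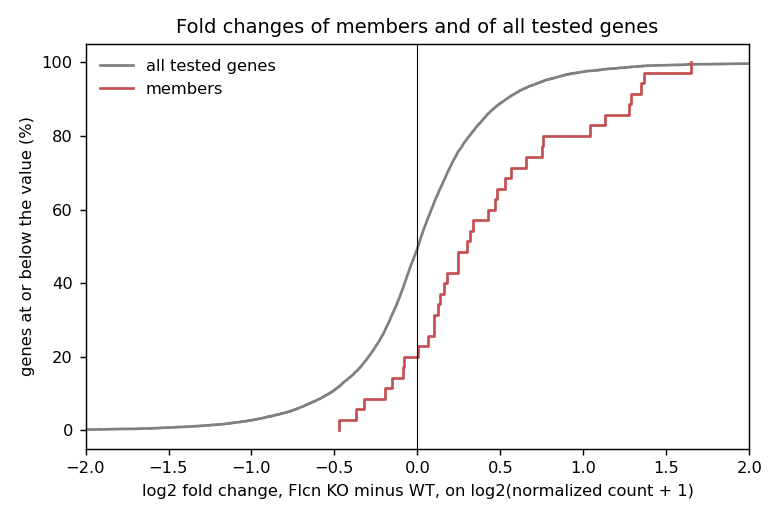
Share of genes (percent, vertical axis) whose log2 fold change, Flcn KO minus WT, is at or below the value on the horizontal axis, for the 35 members (red steps) and for all 14723 tested genes (grey). The red curve lies to the right over most of its course, with 7 of 35 members below 0 and a median of 0.30 against 0.003.

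A group of 9 members acts on glycogen, on the sugar chains of glycoproteins or on glycolipids. All 9 had positive fold changes by limma, with a median of 0.47 on the log2 scale, although that of Gla was negative by edgeR (-0.019). Of the 9, 1 passed the test. That gene was Gaa, acid alpha-glucosidase, which digests glycogen inside lysosomes. Gaa had 13.6, 15.7, 22.9, 17.0 and 28.3 normalized counts in WT replicates 1 to 5, and 78.9, 65.5, 63.0, 45.6 and 57.8 in replicates 1 to 5 labelled Flcn KO. The lowest of the latter was thus well above the highest WT value. The means were 19.5 ± 6.03 and 62.1 ± 12.1 (SD, n = 5 each), and the log2 fold change was 1.65 ± 0.22 (SE), or 3.13-fold, with a limma adjusted p of 0.00657. Behind these values stood 11 to 27 reads in each WT library and 46 to 92 in each one labelled Flcn KO. The call was kept when any 1 of the 10 libraries was left out.

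Hexa, the alpha subunit of beta-hexosaminidase A, which acts on gangliosides such as GM2 and on other sugar chains, had the next largest difference in this class. Hexa had 31.0, 39.2, 48.4, 56.7 and 61.9 normalized counts in the WT replicates and 105, 127, 102, 62.4 and 95.4 in those labelled Flcn KO. The groups did not overlap, although replicate 4 labelled Flcn KO lay only just above the highest WT library. The log2 difference of 1.04 ± 0.24 (SE; 95% interval 0.52 to 1.56) missed the threshold, with a limma adjusted p of 0.0634. It passed when replicate 4 labelled Flcn KO was left out (limma adjusted p = 0.0399) and by edgeR on recovered reads (adjusted p = 0.00227). Neu1, the sialidase that trims terminal sialic acid, had 44.6, 76.2, 73.8, 55.5 and 57.7 normalized counts in the WT libraries and 107, 93.3, 88.4, 70.4 and 92.9 in those labelled Flcn KO. One library labelled Flcn KO lay within the WT range, and the log2 difference was 0.56 ± 0.18 (SE; limma adjusted p = 0.187).

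Aga, which splits the bond between sugar chain and asparagine, had 55.7 normalized counts in WT replicate 1 and 26.1 to 31.8 in the other WT libraries, against 45.5 to 68.6 in those labelled Flcn KO. Its log2 difference was 0.65 ± 0.22 (SE) with a limma adjusted p of 0.204 over all libraries, and 0.84 with a limma adjusted p of 0.0299 without WT replicate 1. Glb1, the acid beta-galactosidase, showed a log2 difference of 0.47 whose 95% interval, 0.03 to 0.91, lay above 0 without passing the adjusted test (limma adjusted p = 0.326). The other 4 glycosidases differed less. For Manba and Man2b1, the beta- and alpha-mannosidases, the log2 differences were 0.25 and 0.14. For Fuca1, the alpha-fucosidase, the value was 0.10, and for Gla, the alpha-galactosidase, it was 0.06. Man2b1 was the steadiest of these, with 358 to 411 normalized counts in the WT libraries and 385 to 476 in those labelled Flcn KO.

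A set of 7 members breaks down glycosaminoglycans, the long sulfated or acidic sugar polymers of proteoglycans. None passed the test, 3 of their fold changes were positive and 4 negative, and the median was -0.15 on the log2 scale. Their summed level was 464 ± 51.3 normalized counts in the WT libraries and 453 ± 35.4 in those labelled Flcn KO, with overlapping groups. Gusb, the beta-glucuronidase, had 87.9, 43.4, 64.9, 52.1 and 59.8 normalized counts in the WT libraries and 83.2, 68.8, 107, 82.3 and 82.2 in those labelled Flcn KO. WT replicate 1 alone overlapped the other group, and the log2 difference was 0.48 ± 0.20 (SE; 95% interval 0.04 to 0.92; limma adjusted p = 0.314). Arsb, the sulfatase that acts on dermatan and chondroitin sulfate, was the member with the lowest fold change. Arsb had 38.4, 47.7, 29.3, 23.8 and 23.1 normalized counts in the WT libraries and 41.2, 15.5, 24.3, 17.8 and 19.5 in those labelled Flcn KO. The groups overlapped, and the log2 difference was -0.47 ± 0.29 (SE; 95% interval -1.11 to 0.17; limma adjusted p = 0.524).

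The remaining 5 of this class take apart heparan, dermatan or keratan sulfate. Ids, the iduronate sulfatase, was the most abundant of them by normalized counts per kilobase of transcript (55.2 ± 10.1 in the WT libraries and 49.6 ± 8.85 in those labelled Flcn KO; mean ± SD, n = 5) and had a log2 difference of -0.15. The values for Galns and Naglu, a galactosamine sulfatase and an alpha-glucosaminidase, were -0.32 and -0.37. Those for the heparan sulfamidase Sgsh and the acetyltransferase Hgsnat were 0.43 and 0.004, respectively. Naglu and Galns had few reads, 3 to 22 and 9 to 26 per library, and the 95% interval of Naglu, -1.33 to 0.59, was wide.

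The 6 members of the sphingolipid class degrade these lipids or help to present them. One rose, 5 of the 6 fold changes were positive, and the median was 0.42 on the log2 scale. The one that rose was Galc, the galactosylceramidase that removes galactose from galactosylceramide. Galc had 19.8, 9.97, 11.5, 9.06 and 12.6 normalized counts in the WT libraries and 19.7, 31.1, 39.8, 38.6 and 30.1 in those labelled Flcn KO. Replicate 1 of each group held nearly the same value, and without either the groups were far apart. The means of 12.6 ± 4.27 and 31.9 ± 8.06 (SD, n = 5 each) gave a log2 fold change of 1.29 ± 0.24 (SE; limma adjusted p = 0.0299). Read numbers behind it were 8 to 16 in the WT libraries and 23 to 48 in the other group. Galc was among the least firm of the calls. It was kept without replicate 1 of either group but lost when any 1 of the other 8 libraries was left out, with a limma adjusted p between 0.0149 and 0.0793 over the 10 fits and a log2 fold change between 1.19 and 1.45.

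Asah1, the acid ceramidase, had 45.8, 76.2, 57.3, 66.9 and 90.3 normalized counts in the WT libraries and 111, 96.6, 160.2, 107 and 92.9 in those labelled Flcn KO. Psap, the precursor of the saposins that lift lipids out of membranes for the hydrolases, had 169.7, 241, 252, 239 and 242 in the WT libraries and 424, 309, 334, 282 and 304 in the other group. For both genes the groups did not overlap. The log2 difference was 0.76 ± 0.21 (SE; limma adjusted p = 0.137) for Asah1. For Psap it was 0.53 ± 0.16 (SE; limma adjusted p = 0.164) with all libraries and 0.42 without WT replicate 1, its lowest. Both passed by edgeR on recovered reads, with adjusted p of 0.0190 for Asah1 and 0.0126 for Psap, and in the authors' deposited table, with adjusted p of 0.0101 and 0.00521. Gm2a, the activator that hands GM2 to hexosaminidase, and Arsa, the sulfatase of sulfatides, had log2 differences of 0.16 and 0.32. Smpd1, the acid sphingomyelinase, stood at -0.20, and the groups overlapped for each of these 3 genes.

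Another 5 members handle cholesterol esters, phospholipids or fatty-acyl thioesters. One of them rose, and it was the member with the largest gain in normalized counts. Npc2 encodes the luminal protein that binds free cholesterol and passes it on toward NPC1 in the lysosomal membrane. Npc2 had 147, 219, 246, 222 and 269 normalized counts in the WT libraries and 713, 562, 546, 432 and 543 in those labelled Flcn KO. The gap between the groups was wide and replicate 1 held both extremes, the lowest WT value and the highest of the other group. From 221 ± 45.6 to 559 ± 100.4 (SD, n = 5 each), the log2 fold change was 1.35 ± 0.19 (SE; limma adjusted p = 0.00974), and the call was kept without any 1 library. Scaled by transcript length, Npc2 moved from place 5 to place 1 among the members, from 66.9 ± 13.8 to 169.5 ± 30.4 normalized counts per kilobase.

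The lipases and thioesterase beside it did not pass the test. Lipa, the acid lipase that frees cholesterol from its esters, had 154 to 264 normalized counts in the WT libraries and 175 to 220.3 in those labelled Flcn KO, with a log2 difference of -0.08 (95% interval -0.43 to 0.27). Ppt1, the thioesterase that strips palmitate from proteins, had 204, 214, 191, 242 and 183 normalized counts in the WT libraries and 243, 229, 245, 238 and 213 in those labelled Flcn KO. These ranges overlapped, and the log2 difference was 0.18 ± 0.12 (SE; limma adjusted p = 0.559). Plbd2, a phospholipase B-like protein, had 29.7, 55.5, 44.6, 39.7 and 52.5 in the WT libraries and 72.02, 43.3, 59.7, 41.6 and 56.5 in the other group, with a log2 difference of 0.30 ± 0.21 (SE; 95% interval -0.18 to 0.77; limma adjusted p = 0.600). Pla2g15, the lysosomal phospholipase A2, was near the limit of detection, with 0 to 19 reads per library and none in WT replicate 1, and its 95% interval ran from -1.20 to 1.69.

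Of the peptidases and the phosphatase, 2 of 4 rose. Tpp1 encodes tripeptidyl peptidase, which clips tripeptides from the ends of proteins in the lysosome. Tpp1 had 224, 132, 177, 170.0 and 130.2 normalized counts in the WT libraries and 382, 379.7, 360.3, 324 and 349 in those labelled Flcn KO. The latter varied little around their mean, 359 ± 23.8, against 167 ± 38.7 in WT (SD, n = 5 each). The log2 fold change was 1.13 ± 0.17 (SE; limma adjusted p = 0.0115), and the call was kept without any 1 library.

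Dpp7, a dipeptidyl peptidase that prefers peptides with proline, had 11.1, 4.98, 11.5, 12.5 and 13.6 normalized counts in the WT libraries and 35.2, 33.3, 25.4, 25.8 and 22.0 in those labelled Flcn KO. The groups did not overlap, but the reads were few, 7 to 13 per WT library and 23 to 41 in the other group. The means were 10.7 ± 3.36 and 28.3 ± 5.63 (SD, n = 5 each), and the log2 fold change was 1.36 ± 0.25 (SE; limma adjusted p = 0.0261). The call was lost without WT replicate 3 or 4 or without replicate 1, 2, 3 or 4 labelled Flcn KO, where the limma adjusted p reached 0.0699 and the log2 fold change lay between 1.14 and 1.46 over the 10 fits.

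Scpep1, a serine carboxypeptidase-like protein, had 7.43, 22.8, 16.6, 13.6 and 12.6 normalized counts in the WT libraries and 27.4, 25.5, 30.9, 15.9 and 22.0 in those labelled Flcn KO. The groups overlapped, and the log2 difference was 0.75 ± 0.28 (SE; limma adjusted p = 0.253). Acp2, the lysosomal acid phosphatase, had 12.4 normalized counts in WT replicate 1 and 48.4, 47.1, 51.0 and 54.6 in the other WT libraries, against 26.6, 32.2, 43.1, 37.7 and 42.7 in those labelled Flcn KO. Its log2 difference was -0.09 ± 0.38 (SE; limma adjusted p = 0.954) over all libraries and -0.47 without WT replicate 1 (limma adjusted p = 0.233). Exons of Acp2 overlap those of Ddb2 on the other strand in GENCODE vM21, and whether the counting used strand is not given in the sources used here, so its reads may include those of Ddb2.

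The last 4 members serve the enzymes rather than cut a substrate. All 4 fold changes were positive and 1 gene rose. That gene was Grn, progranulin, which is carried to lysosomes and cut there into granulins. Grn had 38.4, 46.3, 34.4, 45.3 and 40.9 normalized counts in the WT libraries and 132, 105, 123, 76.3 and 77.9 in those labelled Flcn KO. WT libraries were tight, and the other group was spread but wholly above them. The means of 41.1 ± 4.93 and 103 ± 25.4 (SD, n = 5 each) gave a log2 fold change of 1.28 ± 0.19 (SE; limma adjusted p = 0.0112), kept without any 1 library.

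Among the members that tag and activate the hydrolases, none passed the test. Gnptg, the gamma subunit of the phosphotransferase that starts the mannose 6-phosphate tag, had 29.7, 25.6, 48.4, 53.3 and 32.5 normalized counts in the WT libraries and 44.6, 55.5, 50.8, 36.7 and 45.2 in those labelled Flcn KO. Its log2 difference was 0.33 ± 0.22 (SE; limma adjusted p = 0.559), and that of Gnptab, which encodes the other subunits, was 0.10 (95% interval -0.36 to 0.55). Sumf1, which makes the formylglycine that every sulfatase needs in its active site, had 116, 69.1, 59.8, 78.2 and 101 normalized counts in the WT libraries and 79.7, 83.3, 108, 71.4 and 115 in the other group. The log2 difference of Sumf1 was 0.13 ± 0.22 (SE; limma adjusted p = 0.859), and the groups overlapped for each of these 3 genes. The receptors for the tag, M6pr and Igf2r, which are not among the members, had log2 differences of 0.07 and 0.08.

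**Figure D2:**
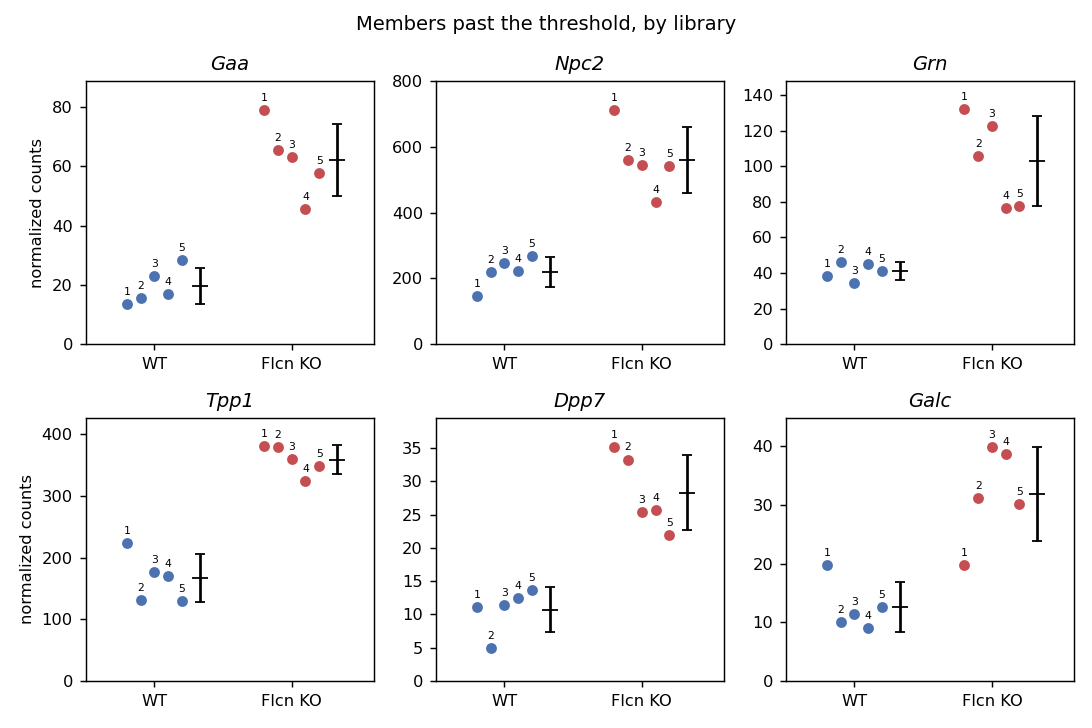
Normalized counts (vertical axes, from 0) of the 6 members that passed the test, 1 dot per library with its replicate number, WT in blue and Flcn KO in red, and the mean ± SD of 5 libraries as a black bar. In 5 panels the groups are apart, and in the panel for Galc replicate 1 of each group meets at 19.8 and 19.7.

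**Figure D3:**
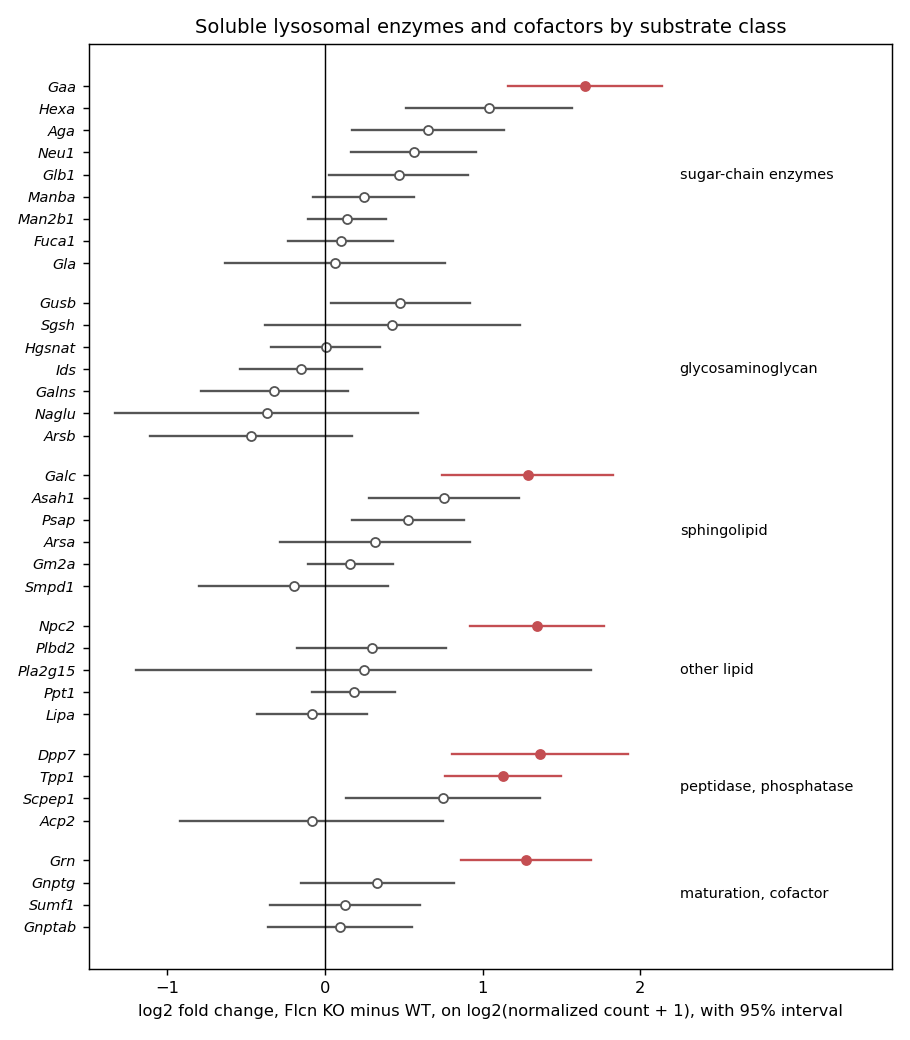
Log2 fold change of each of the 35 members, Flcn KO minus WT, on log2(normalized count + 1), with its 95% interval, ordered within substrate class, with filled red points for an adjusted p under 0.05. The 6 filled points lie between 1.13 and 1.65, the glycosaminoglycan class straddles 0, and Pla2g15 has the widest interval.

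Below the threshold, most of the remaining genes were also placed above 0. Of the 29 members that were not called, 22 had positive fold changes, with a median of 0.18 on the log2 scale, and 8 had a 95% interval wholly above 0 (Hexa, Neu1, Aga, Glb1, Gusb, Asah1, Psap and Scpep1). Their summed level was 2611, 2452, 2424, 2505 and 2563 normalized counts in the WT libraries and 2702 to 3074 in those labelled Flcn KO. The mean sums, 2511 ± 77.0 and 2891 ± 148 (SD, n = 5 each), describe genes picked for missing the threshold and were not tested. For 6 of the 29 the upper end of the 95% interval reached a log2 difference of 1, so that a doubling lay within it.

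**Figure D4:**
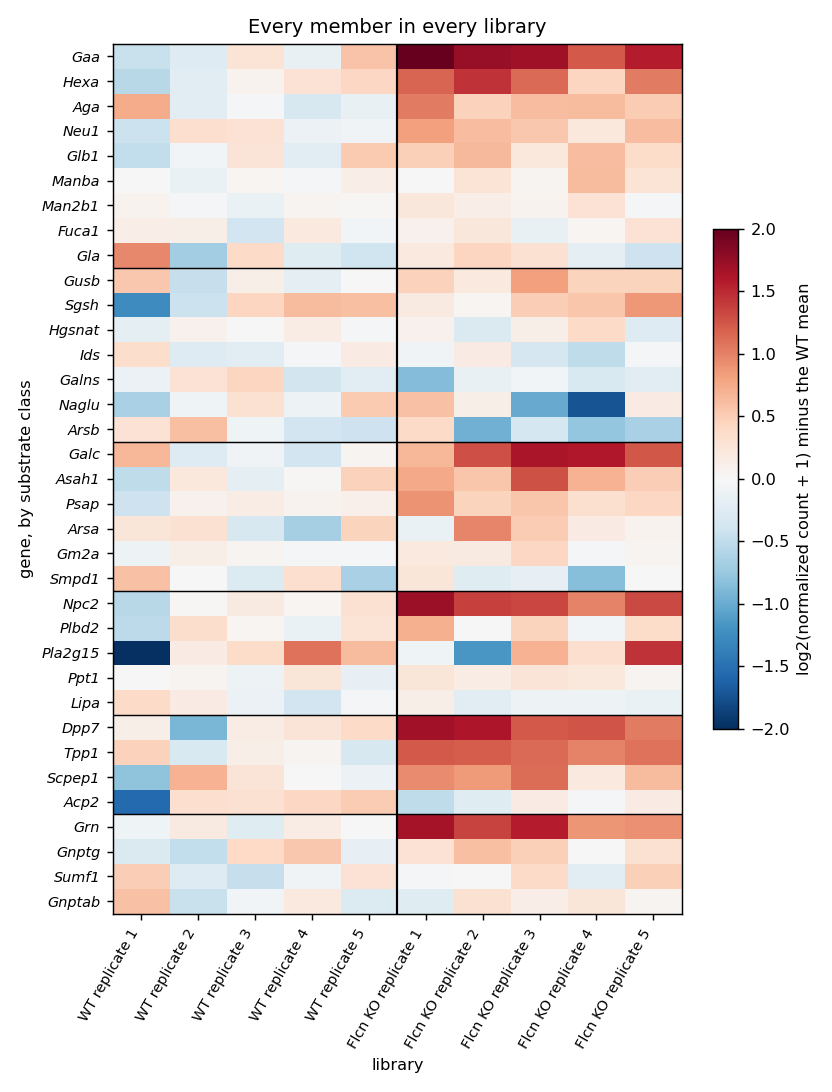
Colour map of every member (rows, by substrate class) in every library (columns), as log2(normalized count + 1) minus the WT mean, from blue (lower) through white to red (higher), with the scale ending at 2 in either direction. The 6 called members are red, Galc palest in replicate 1, in each library labelled Flcn KO, while WT replicate 1 is dark blue for Pla2g15 and Acp2.

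By class, the summed normalized counts, in which long and abundant transcripts weigh most, were higher in 4 of the 6 classes and overlapped in the other two. For the sugar-chain enzymes the sum went from 774 ± 29.1 in WT to 986 ± 57.9 in the libraries labelled Flcn KO, and for sphingolipid breakdown from 552 ± 45.8 to 745 ± 88.4 (mean ± SD, n = 5 each). For the other lipids it went from 682 ± 30.3 to 1045 ± 128, and for the peptidases and phosphatase from 235 ± 23.2 to 448 ± 28.8. In these 4 classes the groups did not overlap, with ratios of 1.27, 1.35, 1.53 and 1.91. Single genes carried much of this. Npc2 gave 339 of the 362 normalized counts gained by the other lipids, and without it the sums overlapped, 427 to 499 in WT and 449 to 539 in the other group. Tpp1 gave 192 of the 213 gained by the peptidases and phosphatase, which also overlapped without it, at 31.0 to 80.8 and 79.3 to 99.5. Psap gave 102 of the 193 gained in sphingolipid breakdown and Hexa 50.7 of the 212 gained by the sugar-chain enzymes, and these groups stayed apart without them. For maturation and cofactors the sums were 275 ± 49.3 and 358 ± 33.4 and overlapped, because WT replicate 1 reached 347. These sums include the members already described, and no test was made on them.

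**Figure D5:**
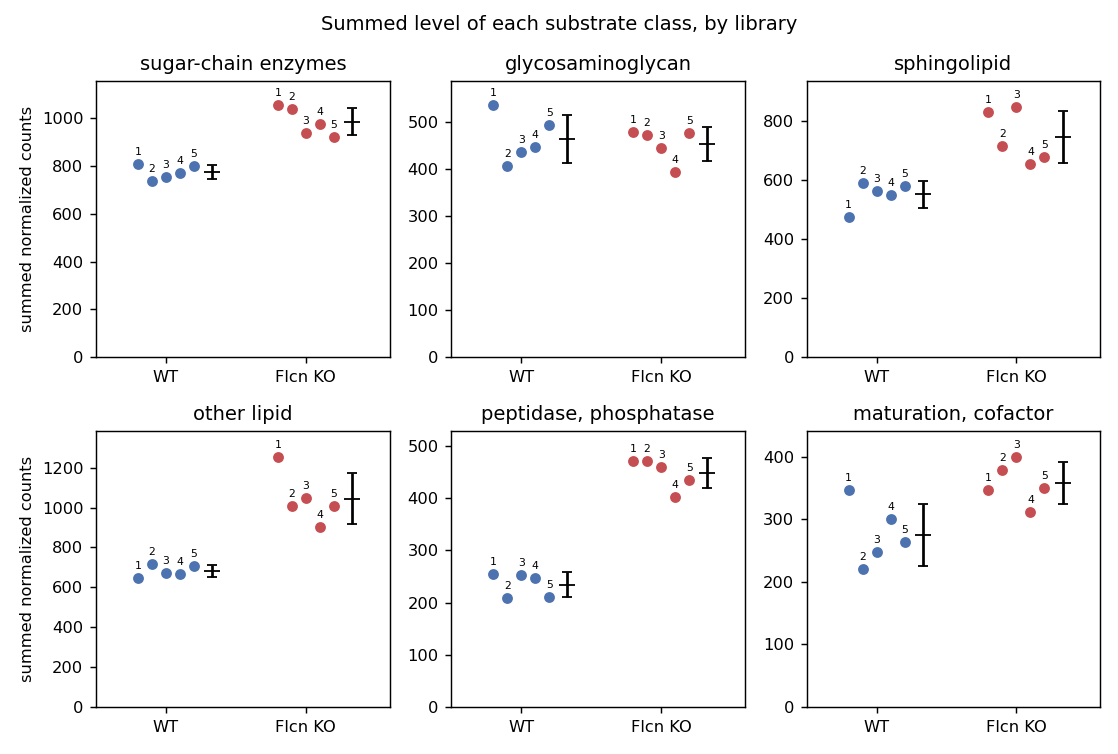
Summed normalized counts of each of the 6 classes (vertical axes, from 0), 1 dot per library with its replicate number, WT in blue and Flcn KO in red, and the mean ± SD of 5 libraries in black. The groups are apart in 4 panels and overlap for glycosaminoglycan breakdown and for maturation and cofactors.

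Levels between genes were compared per kilobase of the longest principal transcript. In WT, Man2b1 led with 102 ± 5.52 normalized counts per kilobase, followed by Ppt1 (86.9 ± 9.76), Psap (86.2 ± 12.6), Lipa (69.2 ± 14.0) and Npc2 (66.9 ± 13.8; SD, n = 5). Ppt1 and Psap differed by less than their spread, as did Lipa and Npc2. Pla2g15 was the lowest with 1.83 ± 1.22, below Galc (3.28 ± 1.11) and Arsa (3.40 ± 1.09), which also differed by less than their spread. In the libraries labelled Flcn KO the order at the top was Npc2 (169.5 ± 30.4), Psap (124 ± 20.8), Man2b1 (113 ± 9.38) and Tpp1 (101 ± 6.68). Psap and Man2b1 differed by less than the SD of Psap, and Tpp1 and the next, Ppt1 (98.1 ± 5.59), by less than theirs. Tpp1 came from 46.8 ± 10.9 and place 8 in WT. Gaa moved from 5.37 ± 1.66 to 17.1 ± 3.33 and Dpp7 from 6.39 ± 2.0 to 16.8 ± 3.35, so both were scarce in WT and mid-ranked in the other group.

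Because several members rose together, the start regions of their genes were read from RefSeq (GRCm38.p6), from 250 bases before to 50 after each start, and 30 of the 35 had an entry. Asah1, Hgsnat, Galns, Aga and Plbd2 had none. The letters CACGTG, the core of the E-box read by the TFEB family, and 2 longer forms that contain it and overlap it, GTCACGTG and TCACGTGA, were searched on both strands, with TCATGTG, a related form of the box. CACGTG was found in 9 of the 30 (30%, against 8.09% of 27025 genes), and 2 of the 9, Gaa and Dpp7, were among the genes that rose. GTCACGTG was found in 7 (23.3%, against 2.55% of genes), namely Gla, Glb1, Naglu, Sgsh, Arsa, Gnptg and Sumf1, and 0 of them had passed the test, with log2 differences from -0.37 to 0.47. TCACGTGA was found in 4 (13.3%, against 1.12%), of which Dpp7 rose, and TCATGTG in 6 (20%, against 4.31%), of which Tpp1, Dpp7 and Grn rose. Presence of these letters is a description of the sequence and not a measured binding site, and no match says only that these letters are not in this window.

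Shown next are the start regions of Dpp7, the called member that holds a longer E-box form, and of the called members with the smallest p, Gaa, Npc2 and Grn, so that the rise of each (1.36, 1.65, 1.35 and 1.28 on the log2 scale) can be read beside its letters. Capitals mark matches to CACGTG, TCACGTGA or TCATGTG on either strand, and the strand given is that of the gene, printed 5′ to 3′. The windows are chr2:25356283-25356582 (minus strand) for Dpp7, chr11:119267713-119268012 (plus) for Gaa, chr12:84773063-84773362 (minus) for Npc2 and chr11:102430257-102430556 (plus) for Grn. The last entry is a stretch of 60 bases around the start of Tpp1, chr7:105752192-105752251 (minus), chosen after its pair of matches was seen.
Dpp7: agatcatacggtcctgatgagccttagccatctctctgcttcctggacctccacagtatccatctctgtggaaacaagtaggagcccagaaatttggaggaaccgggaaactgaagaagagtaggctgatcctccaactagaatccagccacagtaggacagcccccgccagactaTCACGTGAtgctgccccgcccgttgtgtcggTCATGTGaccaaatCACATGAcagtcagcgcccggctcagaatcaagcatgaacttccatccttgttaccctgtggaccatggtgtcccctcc
Gaa: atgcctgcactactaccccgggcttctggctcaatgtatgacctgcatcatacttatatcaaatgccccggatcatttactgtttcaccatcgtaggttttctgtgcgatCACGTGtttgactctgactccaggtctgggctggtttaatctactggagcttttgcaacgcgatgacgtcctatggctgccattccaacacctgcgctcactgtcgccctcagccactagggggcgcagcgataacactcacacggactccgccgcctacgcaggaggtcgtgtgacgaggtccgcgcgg
Npc2: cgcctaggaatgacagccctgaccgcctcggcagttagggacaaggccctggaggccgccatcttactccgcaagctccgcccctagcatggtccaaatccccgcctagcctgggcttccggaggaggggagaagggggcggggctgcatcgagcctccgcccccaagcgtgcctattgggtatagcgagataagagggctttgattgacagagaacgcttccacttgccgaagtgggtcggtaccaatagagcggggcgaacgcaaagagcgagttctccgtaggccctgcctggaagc
Grn: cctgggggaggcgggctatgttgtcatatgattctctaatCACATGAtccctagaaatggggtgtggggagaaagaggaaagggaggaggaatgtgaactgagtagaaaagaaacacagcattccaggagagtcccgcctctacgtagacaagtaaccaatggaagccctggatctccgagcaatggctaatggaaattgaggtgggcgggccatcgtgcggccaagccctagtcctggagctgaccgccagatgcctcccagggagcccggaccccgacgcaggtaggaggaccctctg
Tpp1: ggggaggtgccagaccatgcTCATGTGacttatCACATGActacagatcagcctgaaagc
Counted from the start of the gene, the TCACGTGA of Dpp7 begins at base -74 and its TCATGTG matches at -43 and -29. The CACGTG of Gaa begins at base -140, and the TCATGTG match of Grn, on the other strand, at -210. The Tpp1 matches lie just past the start, at bases 5 and 18. Npc2, which had among the largest rises, held none of these letters in its window, nor did Galc.

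Other genes of the lysosome gave a background for the members, from lists written with earlier results of these data known. Of 25 other soluble hydrolases 20 had positive fold changes with a median of 0.30, as for the members, and 1 rose and 0 fell. Their normalized counts summed to 989.9 ± 41.7 for WT and 1328 ± 161 for the other group (mean ± SD, n = 5 each), a ratio of 1.34. Among 12 lysosomal proteases 1 rose, the cysteine protease Ctsl (14.2 ± 4.47 to 55.7 ± 18.1 normalized counts; limma adjusted p = 0.0129), and 0 fell, with a median of 0.23. Of 25 lysosomal membrane proteins 4 rose and 0 fell, with a median of 0.50. Among these were Lamp2 (1.03 on the log2 scale; limma adjusted p = 0.0127), Lamp1 (1.01; 0.0176) and the calcium channel gene Mcoln1 (0.86; 0.0247). Of 16 vacuolar ATPase genes, whose proton pump acidifies the lumen in which the members work, 1 rose (Atp6ap2, 1.10; limma adjusted p = 0.00578) and 0 fell, with a median of 0.57. Of 16 genes that deliver enzymes to lysosomes, 1 rose, the Golgi adaptor Gga2 (2.42; limma adjusted p = 0.0175), and 0 fell, with a median of 0.10. In the folliculin circuit 4 of 10 genes rose, Flcn among them, and 0 fell. The others included Rragd, a Rag GTPase (2.46; limma adjusted p = 4.18e-05), and Fnip1 (1.18; limma adjusted p = 0.0103), while Tfeb had a log2 difference of -0.48 (limma adjusted p = 0.523) and Tfe3 one of -0.05 (limma adjusted p = 0.974).

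Many of these enzymes are abundant in macrophages, so markers of other cells were measured beside them. Of 25 myeloid and dendritic markers 19 were in the table, 17 had positive fold changes with a median of 0.49, and 1, Ly6c2, rose (from 1.86 ± 1.59 to 8.49 ± 2.03 normalized counts; limma adjusted p = 0.0390). At an unadjusted limma p under 0.05, 7 of the 19 were higher (7.16% of all tested genes) and 0 were lower (6.88%). The summed level of these markers was 156, 464, 354, 364 and 313 normalized counts in the WT libraries and 463, 309.8, 697, 393 and 397 in those labelled Flcn KO. The groups overlapped, and the ratio of the mean sums was 1.37, beside 1.35 for the members. Adgre1, Clec9a and Ly6c2 were at 0 in WT replicate 1, S100a8 in WT replicates 1 and 3 and Spi1 in WT replicate 4. Summed B cell markers, 15 of 16 in the table and 0 called, were 1526 to 1707 in the WT libraries and 1730.3 to 3309.7 in those labelled Flcn KO. Of these 15, 14 had positive fold changes, with a median of 0.46, and 3 were higher and 0 lower at an unadjusted limma p under 0.05. The ratio of the mean B cell sums was 1.35, and these groups did not overlap. The 4 erythroid and platelet markers in the table summed to 38.4 to 71.9 in WT and 84.0 to 116 in the other group, and Gata1 among them rose (28.2 ± 9.71 to 63.3 ± 5.15 normalized counts; limma adjusted p = 0.0235). Of 7 plasma cell markers 4 were in the table (Jchain, Xbp1, Prdm1 and Irf4), and Sdc1, Tnfrsf17 and Mzb1 were not. The 4 summed to 434 to 567 in WT and 339.7 to 479.6 in the other group, and Prdm1 among them fell (-1.16; limma adjusted p = 0.0370). Of 9 CD8 T and NK cell markers 7 were in the table and 0 were called (limma; 0 higher and 1 lower at an unadjusted p under 0.05). The 7 summed to 168 to 244 in WT and 102 to 227 in the other group. In bulk libraries the cells that made a marker's RNA cannot be told, so Ly6c2 and Prdm1 alone do not measure myeloid or plasma cells. The part of these cells in the members' differences was not tested.

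For 2 of the genes that rose, exons of another gene overlap theirs on the other strand in GENCODE vM21 (Gm47439 for Galc and Fam171a2 for Grn), and neither partner is in the table. Without knowing whether the counting used strand, reads from the partners cannot be told apart. Gaa, Npc2, Tpp1 and Dpp7 have no such overlap. The same uncertainty holds for Arsa, Arsb, Gnptab, Gnptg, Hexa, Plbd2, Ppt1, Scpep1 and Sgsh, and Glb1 shares exons with Tmppe on its own strand. Each of the 5 other calls had 9 members higher, the 6 described with Hexa, Asah1 and Psap. The share of all genes called higher was then 3.02% by edgeR, 2.57% by DESeq2 and 2.91% by limma-voom on recovered reads, 2.21% by limma with trend and robust settings and 2.48% in the authors' deposited table. Which of the 2 counts, 6 or 9, is reported thus depends on the test, and the direction of those 9 does not.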

How the data were processed

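RNA of 10 sorted Treg samples, 5 per group as labelled, was analysed from 1 deposited table. Its columns hold a signal per gene and library, taken as reads over a size factor of that library, and the authors' own comparison (log2 fold change with SE, a Wald score, p-value and adjusted p-value). The build mm9 and, as tools, DESeq2 1.24.0, RSEM 1.3.1, STAR 2.5.3a and Trimmomatic 0.36 are named per the submitters' processing notes. The role of each tool was not given in the sources used here, nor were annotation and strand setting. The deposited signal was turned back into whole reads (100% of values whole within 0.01 reads, and size factors recomputed within 0.0238%). Totals were 1914516 to 4153854 reads, so genes with few reads carry large counting error.

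The main test was limma 3.58.1 (R 4.3.3) on log2(normalized count + 1), for genes with 1 or more in at least 5 libraries (14723), with genotype alone, eBayes without trend or robust settings and Benjamini-Hochberg adjustment over all tested genes at 0.05. The deposited values being normalized, count tests were alternatives: edgeR 4.0.16, DESeq2 1.42.0 and limma-voom on recovered reads. Other alternatives changed the pseudocount, the filter, the scaling or the replicate block, or left out each library in turn. The fit was also run on simulated counts that had the same dispersion for every gene and no library standing apart. That run does not show how the fit behaves on libraries such as WT replicate 1. The added 1 understates changes of low genes. Libraries of a group differed beyond counting noise (chi-square per degree of freedom 2.17 to 30.5). The design text calls the samples biological replicates and gives no batch.

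All 35 members were in the table and were chosen, like the other lists, with earlier results of these data known. Full values are given for members past the threshold, and library values for the 2 others per class with the smallest p and any whose groups do not overlap. Up to 3 genes past the threshold are named from other lists. Transcript lengths came from GENCODE vM21, and promoter windows from RefSeq GRCm38.p6, matched by symbol. The deposited table gives no coordinates.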

Additional observations from a re-analysis of the deposited data

Results flagged for a closer look

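Among 84 groups of 5 libraries tested with Dixon's criterion, covering the members and the other named genes, 7 held a library far from the rest of its group. Chance flags about 1 in 20 groups. Of the 7, 4 were in WT replicate 1. Its Flcn was 78.0 normalized counts against 45.6 to 54.7 in the other WT libraries, and its Aga was 55.7 against 26.1 to 31.8. Psap in that library was 169.7 against 239 to 252, and Acp2 was 12.4 against 47.1 to 54.6. In the libraries labelled Flcn KO, Aga was 68.6 in replicate 1 against 45.5 to 51.5, and Asah1 was 160.2 in replicate 3 against 92.9 to 111. Dpp7 was 4.98 in WT replicate 2 against 11.1 to 13.6 in the other WT libraries, and its call was kept without that library.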

How the results depend on the processing

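Over 49 named results and 23 alternatives, 993 values kept their direction and side of the threshold, 82 lost the threshold, 24 gained it and 20 changed sign, none of them past the threshold. The number of genes called, 252, was 598 with trend and robust settings, 592 by edgeR, 727 by DESeq2, 589 by limma-voom, 703 in the authors' deposited table, 682 by edgeR without WT replicate 1 (chosen after seeing the data) and 122 to 217 with 1 library left out. Members called higher, 6, were 4 to 7 with 1 library left out and 11 by edgeR without WT replicate 1, which added Aga, Asah1, Gusb, Hexa and Psap. Pairing of the samples by replicate number was not established. Deviations of same-numbered libraries correlated at 0.00923 to 0.0325, and 1 of 5 numbers matched best with itself. With large counting error in genes with few reads, such values cannot exclude pairing. With the replicate number as a block, 59 genes and 0 members were called. Sign changes affected Gla (-0.019 by edgeR, -0.023 by DESeq2, -0.024 in the authors' deposited table, and -0.11 to 0.31 with 1 library left out), Hgsnat (-0.031 by limma-voom, -0.037 by edgeR without WT replicate 1, -0.090 to 0.078), Lipa (-0.18 to 0.014), Pla2g15 (-0.32 to 0.60), Gnptab (-0.015 to 0.24) and Acp2 (-0.47 to 0.040). The cause was not tested. Pla2g15 was not tested by edgeR or limma-voom or at a minimum of 10, which left 34 members. The members' median log2 difference was 0.25 to 0.36 with 1 library left out. Depth limits Pla2g15, Naglu, Galns and Arsa most. Without molecular identifiers, reads may be copies of one molecule, and read numbers cover counting error only.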
